A study of Rattus norvegicus with 11 samples.

Results

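Nucleotide synthesis enzymes supply the deoxynucleotides that cells need to copy their DNA. The group was set as 6 genes by name, Rrm1, Rrm2, Tyms, Tk1, Dut and Dck, and its members are the probe sets that the array's annotation assigns to them. Of the 6 genes, 5 have a probe set of their own, with 6 such probe sets among the 15923 on the array, since Tk1 has 2. Rrm2 shares its 1 probe set with Rrm2l1, a second locus of nearly the same name on another chromosome, so that probe set is described as Rrm2/Rrm2l1 and is not counted among the 5 genes.

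Signals were measured on 11 Affymetrix arrays with RNA from REF52 cells, an established line of rat embryo fibroblasts. Growth in 10% serum was followed by 48 hours in 0.25% serum, and the cells then received an adenovirus, either a control virus (labelled CMV) or one expressing E2F1, which switches on genes for entry into S phase. After infection they received deprivation medium, serum, or serum with LY294002, an inhibitor of phosphoinositide 3-kinase (PI3K), an enzyme of growth factor signalling. Each of the 6 groups has 2 arrays, except control virus cells in deprivation medium, which have 1. E2F1 came from a virus, so the E2F1 groups hold introduced E2F1, together with the cells' own response to serum where serum was given. The sources used here do not give the virus dose or the harvest time.

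Ribonucleotide reductase turns ribonucleotides into deoxyribonucleotides, and it is built from a large subunit, encoded by Rrm1, and a small subunit, encoded in dividing cells by Rrm2. Thymidylate synthase (Tyms) makes the thymine nucleotide from its uracil counterpart, and the dUTPase Dut supplies that uracil nucleotide while keeping uracil out of DNA. Thymidine kinase 1 (Tk1) and deoxycytidine kinase (Dck) instead recover free nucleosides, the salvage route. Reductase, thymidylate synthase and Tk1 genes are textbook targets of E2F factors at the start of S phase, when their RNA normally rises.

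Because E2F factors are known to bind promoters of this group, the 250 bases before each RefSeq transcript start (build GRCr8) were searched on both strands for the 8-letter E2F words TTTCCCGC, TTTCGCGC, TTTGCCGC and TTTGGCGC and for the 6-letter core GCGGGA, which TTTCCCGC also contains in reverse. The words were chosen after these sequences had been seen. Entries were found for 5 of the 6 genes, 6 entries in all with 2 for Dut. Among 21851 such stretches of protein-coding genes, 2.22% hold an E2F word and 20.2% hold the core. The sites found are shown in 30 bases each, 5′ to 3′ on the gene's strand, with the matching letters in capitals:
Tyms, chr9:120776102-120776131, minus strand: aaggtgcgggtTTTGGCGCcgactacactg
Rrm1, chr1:166235704-166235733, plus strand: ggagaaatcggtTCCCGCcagatccgcttt
Dut, chr3:132952852-132952881, plus strand: gggctcgtccagGCGGGAgatttttggcgg
Only the Tyms entry among these 6 holds 1 of the 8-letter words searched, from 37 to 30 bases before its transcript start. The span RefSeq gives the gene covers the last 66 bases of the window, the site included. The Rrm1 core lies 188 to 183 bases before the start. The Dut core shown lies 35 to 30 bases before the second of its 2 starts, within the span of the gene, and that entry holds another core further up. The 30 bases shown for Dut also hold TTTGGCGG, which differs from the Tyms word in its last letter and was not searched for. The entries of Tk1 and Dck hold neither motif in this window, and neither does the first of Dut. These matches describe the letters present; binding was not measured.

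The arrays had the same trimmed mean signal, and their medians ran from 173 to 208, so a signal well under that range is dim. Whether the arrays of a group are separate cultures is not stated, and p-values therefore cover the spread between arrays alone, which may be technical. The excess of 3′ over 5′ signal for beta-actin and GAPDH, which grows as RNA degrades, was 0.90 on the log2 scale on the second E2F1 array with LY294002, 0.51 to 0.76 on the 3 deprived arrays and 0.12 to 0.33 on the other 7; its part in the results was not tested. Of 14 fibroblast markers, 10 lay above every array's median on all arrays, while Thy1, Lum and Dcn lay below it, and the summed signal of the 14 was 94859 to 139584 on control virus arrays and 83190.3 to 111667 on E2F1 arrays. Of 18 measured markers of other cells, 0 lay above it throughout and 13 lay below it throughout. The rest include Des, Krt8 and Syp, whose signals reached 599, 574 and 423. The summed signal of the 18 was 1531 to 1973 on control virus arrays and 1326 to 2032 on E2F1 arrays. The part of either sum in the results was not tested. The level of E2f1 itself is not analysed here, so the labels were not checked against it.

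The first question was whether E2F1 raised these enzymes against control virus, averaged over the 3 media. It raised 3 of the 5 genes, Rrm1, Tyms and Dut, each by more than 3-fold, and 0 fell. Tk1 and Dck did not pass the test. The rise passes in limma's test with Benjamini-Hochberg adjustment over all 15866 probe sets, of which 9.23% were called higher and 7.25% lower in this comparison, 16.5% in all. The median log2 change of the 5 genes was 1.65, against -0.04 over all probe sets tested. On 3 of the 5 genes every E2F1 array lay above every control virus array, which holds for 6.05% of all probe sets. In whole cultures, more cells in S phase and more RNA per cell cannot be told apart.

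**Figure D1:**
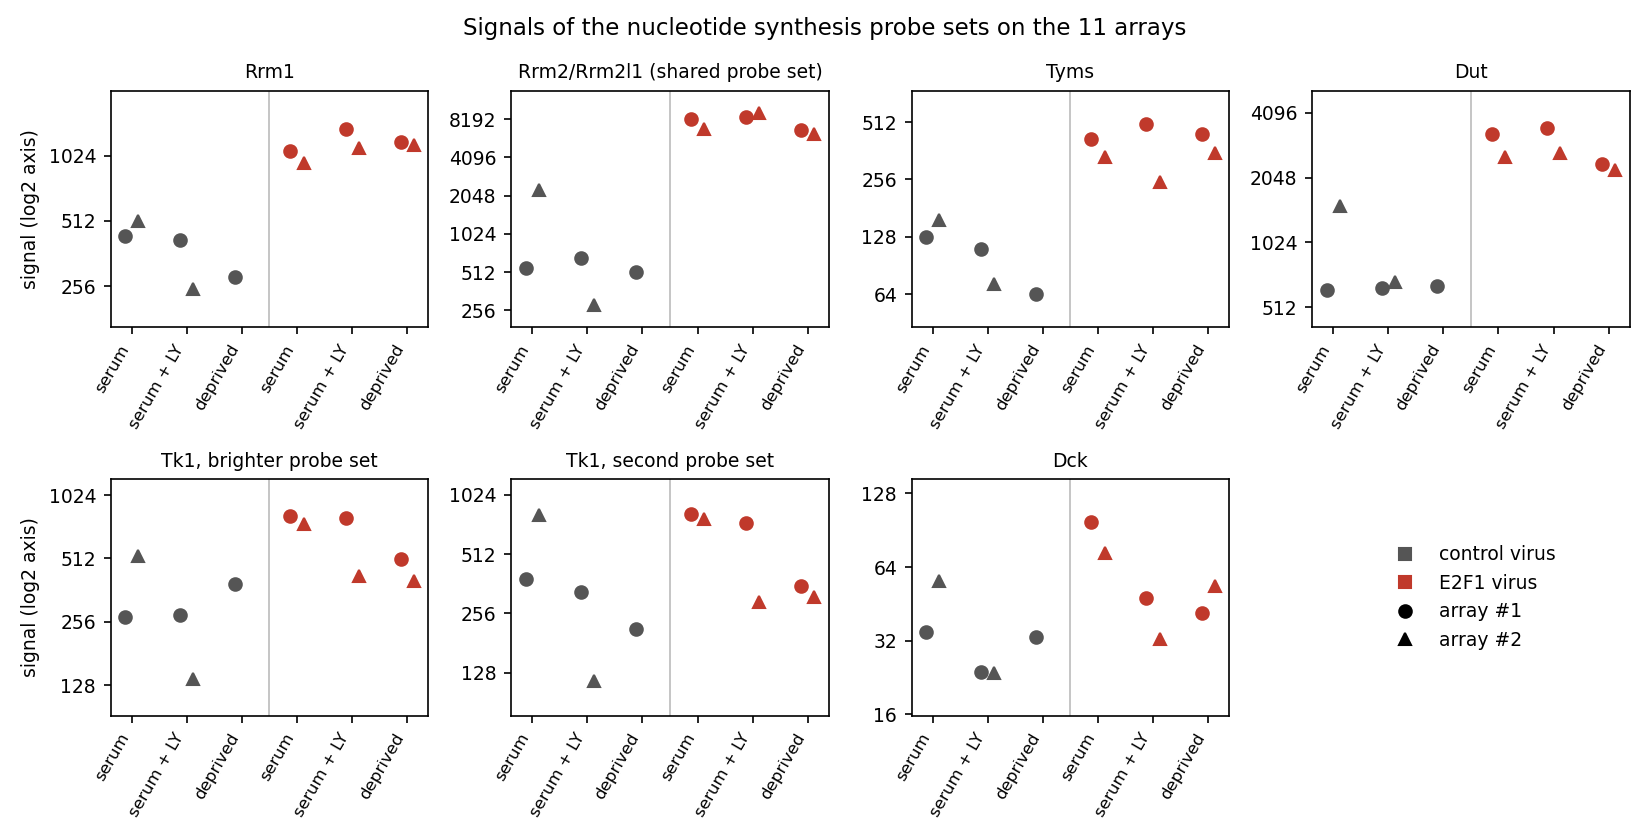
Signal of each probe set (vertical axis, log2 scale) on the 11 arrays by medium, with control virus arrays in grey and E2F1 arrays in red, circles for array 1 and triangles for array 2. For Rrm1, Tyms, Dut and the Rrm2/Rrm2l1 probe set the red points all lie above the grey ones, while for Tk1 and Dck they overlap.

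Rrm1, the large reductase subunit, had signals of 436 and 509 on the control virus arrays in serum, 418 and 247 with LY294002 and 281 in deprivation. On the E2F1 arrays it stood at 1071 and 946 in serum, 1362 and 1108 with LY294002, and 1186 and 1147 in deprivation. The lowest E2F1 array thus lay well above the highest control virus array, and the deprived E2F1 pair was the closest of all. Averaged over media Rrm1 rose 3.13-fold (log2 change 1.65 ± 0.16, SE, limma adjusted p = 0.00104, 6 arrays against 5). Here and below, changes are differences of log2(signal + 16), and folds are on that scale. In the order of its levels, the E2F1 groups with LY294002 and in deprivation overlap, as do the control virus groups with LY294002 and in deprivation.

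The Rrm2/Rrm2l1 probe set, which covers the small reductase subunit together with Rrm2l1, moved most in size. Its control virus signals were 556 and 2283 in serum, 659.6 and 281 with LY294002 and 515 in deprivation. With E2F1 they were 8228 and 6879 in serum, 8483 and 9195 with LY294002, and 6785 and 6240.2 in deprivation. All E2F1 arrays lay in a narrow range far above the controls, among which the second serum array stood far above the rest. The average change was 11.7-fold (3.55 ± 0.38, limma adjusted p = 0.0015), and 5 of all 15866 probe sets had a larger rise. How much of this signal comes from Rrm2 and how much from Rrm2l1 is not known from the array.

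Tyms, thymidylate synthase and the one with a searched 8-letter word above, had control virus signals of 128 and 156 in serum, 111 and 72.6 with LY294002 and 64.1 in deprivation. E2F1 arrays read 417 and 335 in serum, 499.5 and 248 with LY294002, and 441 and 352 in deprivation. The control groups followed each other without overlap from serum to LY294002 to deprivation, whereas the 3 E2F1 groups overlapped. Tyms rose 3.53-fold on average (1.82 ± 0.21, limma adjusted p = 0.00195). The control levels lie under the array medians, and the offset of 16 therefore trims this change somewhat.

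Dut, the dUTPase, showed 619 and 1519 on control virus arrays in serum, 629.7 and 670.1 with LY294002 and 641 in deprivation. Its E2F1 signals were 3266 and 2538 in serum, 3460.2 and 2675 with LY294002, and 2369 and 2214 in deprivation. Apart from the second serum array, the controls were nearly level, and deprived E2F1 cells were the lowest of the E2F1 groups. Dut rose 3.62-fold on average (1.85 ± 0.23, limma adjusted p = 0.0027). The rise of Rrm1, Tyms, Dut and the Rrm2/Rrm2l1 probe set was called in all 20 alternative settings tried for this average, 10 of which leave out 1 array. The setting that takes the mean of a gene's probe sets leaves their values unchanged, since each is read by a single probe set.

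Of the salvage kinases, Tk1 was less separated. Its brighter probe set read 269 and 523 on control virus arrays in serum, 277 and 137 with LY294002 and 387 in deprivation, against 813 and 749, 795 and 424, and 507 and 400 with E2F1. Within each medium the E2F1 arrays were higher, but across media only 3 of 6 exceeded all controls. The average change of 0.91 ± 0.27 did not pass the threshold of 0.05 (limma adjusted p = 0.0565). It did so in 10 of 20 alternatives, among them both other scalings (adjusted p = 0.0499 and 0.0384) and leaving out the second control virus array in serum (1.06, adjusted p = 0.0448), the first control virus array with LY294002 (1.07, adjusted p = 0.0369) or the second E2F1 array with LY294002 (1.06, adjusted p = 0.0391). The second Tk1 probe set gave 0.76 ± 0.35 (adjusted p = 0.189), with 807 on the second control virus array in serum and 823 on the highest E2F1 array.

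Dck was dim throughout. Control virus signals were 34.8 and 56.3 in serum, 23.8 and 23.6 with LY294002 and 33.1 in deprivation, and E2F1 signals were 97.8 and 72.8, 48.0 and 32.6, and 41.4 and 53.6. The E2F1 arrays in serum were the only ones above all controls. Its log2 change of 0.53 ± 0.15 missed the threshold (limma adjusted p = 0.0518), and no fold is given so near the offset. Over 19 alternative settings its change ran from 0.30 to 0.71, and the call was made in 2 of them. These left out the second serum array of control virus cells (0.61) or the second E2F1 array with LY294002 (0.59).

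The second question was how the E2F1 effect looked in each medium. In every medium each of the 5 genes, Tk1 by its brighter probe set, was higher on all E2F1 arrays than on the control virus arrays. Tk1's second probe set overlapped in serum and with LY294002. Such separation was shown by 31.5% of all probe sets in serum, 21% with LY294002 and 31.8% in deprivation. These are common shares, since groups hold 2 arrays or 1.

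**Figure D2:**
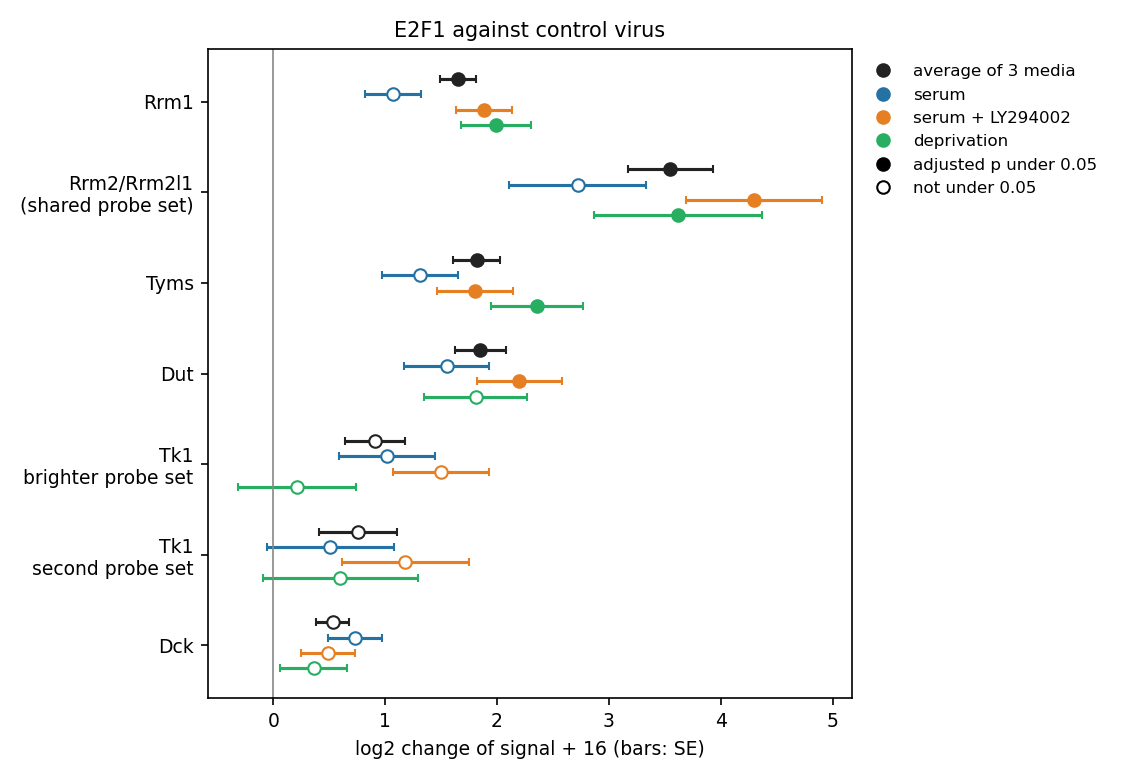
Log2 change of signal + 16 (horizontal axis) for E2F1 against control virus, for each probe set, in the average and in each medium. Points are estimates from the fit over 11 arrays, bars are standard errors, and filled points have an adjusted p under 0.05; in serum no point is filled.

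In serum 0 of the 5 genes passed limma's test, where 0.29% of all probe sets were called higher and 0.063% lower, 0.353% in all. All 5 had an unadjusted p under 0.05, as had 2465 of all 15866 probe sets. Log2 changes ran from 0.73 ± 0.24 for Dck (adjusted p = 0.219) to 1.55 ± 0.38 for Dut (adjusted p = 0.117). The Rrm2/Rrm2l1 probe set stood at 2.72 ± 0.61 (adjusted p = 0.105). The second control virus array in serum bears on these values. It was higher than the first for all 7 probe sets, and without it Dut passed (2.19, adjusted p = 0.033) and so did Rrm2/Rrm2l1 (3.72, adjusted p = 0.0344). With the first one left out instead, Dut was at 0.92 and Rrm2/Rrm2l1 at 1.71, and neither passed. The 3′ to 5′ difference was 0.14 and 0.12 on that pair.

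With LY294002 present, E2F1 raised 3 of the 5 genes, where 3.78% of all probe sets were called higher and 1.63% lower, 5.41% in all. They are Rrm1, by 3.68-fold (1.88 ± 0.25, adjusted p = 0.0135), Dut, by 4.59-fold (2.20 ± 0.38, adjusted p = 0.0223), and Tyms, by 3.48-fold (1.80 ± 0.34, adjusted p = 0.0281). The Rrm2/Rrm2l1 probe set rose 19.7-fold (4.30 ± 0.61, adjusted p = 0.0151). Tk1 (1.5 ± 0.43, adjusted p = 0.0907) and Dck (0.49 ± 0.24, adjusted p = 0.3) did not pass. The count of 3 fell to 1, Rrm1, without the first or the second control virus array with LY294002 or either deprived E2F1 array. It fell to 2 without either E2F1 array with LY294002, where Dut was lost, or either control virus array in serum, where Tyms was lost. It was 0 when both second LY294002 arrays were dropped, and also when the model held just these 2 groups. The Rrm2/Rrm2l1 call was lost without the second control virus array (3.71, adjusted p = 0.0533) or the second E2F1 array with LY294002 (4.24, adjusted p = 0.0586).

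In deprivation medium, with 2 E2F1 arrays against 1, Tyms rose 5.12-fold (2.36 ± 0.41, limma adjusted p = 0.0317) and Rrm1 3.98-fold (1.99 ± 0.31, adjusted p = 0.0276), 2 of 5 genes where 2.19% of probe sets were called higher and 0.681% lower, 2.87% in all. The Rrm2/Rrm2l1 probe set rose 12.3-fold (3.62 ± 0.75, adjusted p = 0.0482). Dut had a change of 1.81 ± 0.46 (adjusted p = 0.08). Tk1 was at 0.21 ± 0.53 (adjusted p = 0.861), with 387 on the control array and 507 and 400 on the E2F1 arrays, and Dck at 0.36 ± 0.30 (adjusted p = 0.543). The count fell to 0 without either E2F1 array in deprivation or in serum. Without either control virus array in serum Tyms was lost (adjusted p = 0.058) and Dut was called (adjusted p = 0.0327). The Rrm2/Rrm2l1 call was lost without any one array of E2F1 cells.

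The difference of the E2F1 effect between media was tested directly. With LY294002 against none in serum, limma called 0 of the 5 genes and 0% of all probe sets. An unadjusted p under 0.05 was found for 0 of the 5 and for 998 of all 15866 probe sets. The difference was 0.81 for Rrm1 (95% interval -0.02 to 1.64) and 0.65 for Dut (-0.58 to 1.88), and for Dck it was -0.24 (-1.04 to 0.56). For deprivation against serum 0 of 5 were called as well, again 0% of all probe sets. Of the 5, 0 had an unadjusted p under 0.05, against 1542 of all 15866 probe sets. There the difference was 1.05 for Tyms (-0.18 to 2.28) and 0.92 for Rrm1 (0.00 to 1.85), and for Tk1 it was -0.81 (-2.39 to 0.77). The intervals of Rrm1 run from about no difference to an effect larger than in serum. On the log2 scale it is larger by up to 1.64 with LY294002 and 1.85 in deprivation. The others given allow a larger or a smaller effect than in serum. The media are therefore not shown to differ or to be alike.

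The third question was what LY294002 or deprivation did in cells with the same virus. In control virus cells all 5 genes had lower values with LY294002 than without, by 0.53 to 0.89 on the log2 scale. Of all probe sets, 52.2% had higher values with LY294002. The 5 changes rest on the same serum arrays, the second of which was higher than the first for each gene. Limma called 0 of the 5 and 0% of all probe sets. An unadjusted p under 0.05 was found for 1 of 5 and for 1050 of all 15866 probe sets. Tk1 was at -0.89 ± 0.43 (adjusted p = 0.743), and its second probe set at -1.42 ± 0.57 (adjusted p = 0.742). The Rrm2/Rrm2l1 probe set stood at -1.35 ± 0.61 (adjusted p = 0.743), with signals of 556 and 2283 in serum and 659.6 and 281 with LY294002, which overlap. Without the second serum array Dut changed sign, to 0.07.

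**Figure D3:**
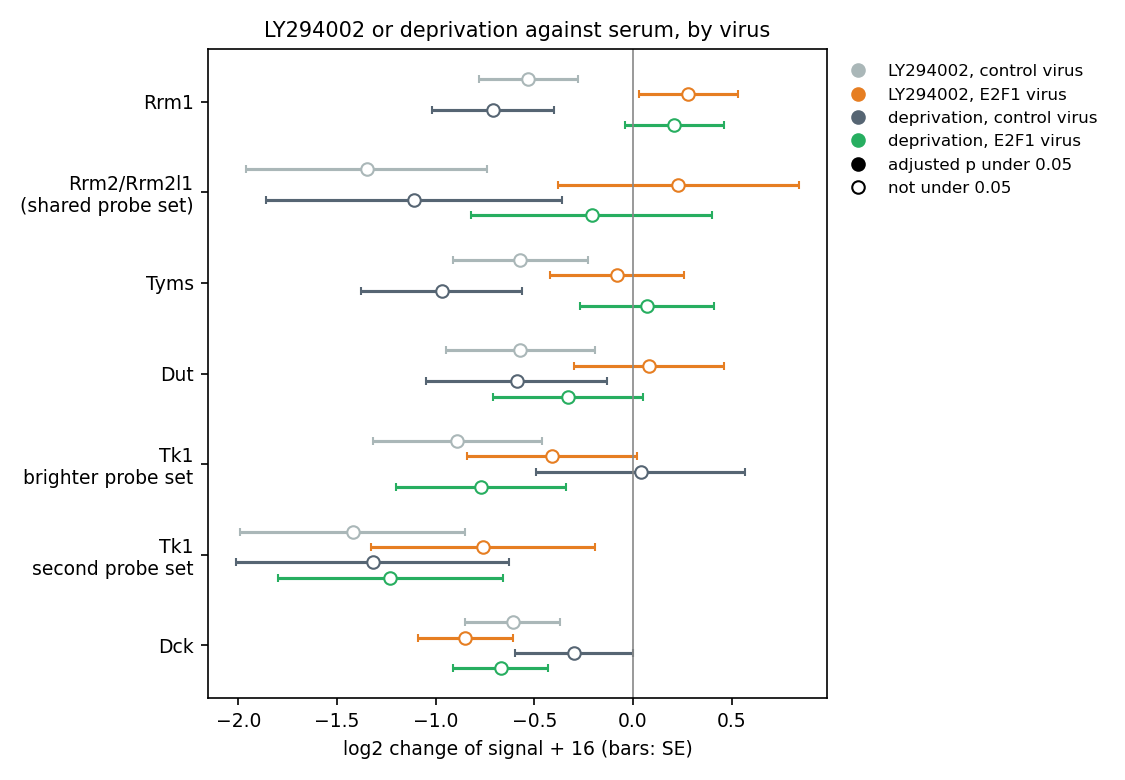
Log2 change of signal + 16 (horizontal axis) with LY294002 or in deprivation, each against serum, in control virus and in E2F1 cells. Points are estimates from the fit over 11 arrays and bars are standard errors; no point is filled, since no change had an adjusted p under 0.05.

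In E2F1 cells LY294002 left Rrm1 at 0.28 ± 0.25, Dut at 0.08 ± 0.38 and Tyms at -0.08 ± 0.34 (limma adjusted p between 0.662 and 0.945). Dck had the largest difference of the group there, -0.85 ± 0.24 (adjusted p = 0.426), with 97.8 and 72.8 in serum against 48.0 and 32.6. Again 0 of 5 genes and 0% of all probe sets were called. Of the 5, 1, Dck, had an unadjusted p under 0.05, as had 1769 of all 15866 probe sets. The 3′ to 5′ difference of 0.90 belongs to the second of these LY294002 arrays, on which all 5 genes were lower than on the first and Rrm2/Rrm2l1 was higher; its part in these values was not tested. Without it Tyms stood at 0.40 and Tk1 at 0.03.

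Deprivation against serum gave 0 calls among the 5 genes with either virus, where limma called 0.24% of all probe sets in control virus cells (0.176% higher, 0.063% lower) and 0.233% in E2F1 cells (0.151% higher, 0.0819% lower). In each case 1 of 5 had an unadjusted p under 0.05. Of all 15866 probe sets 2217 had one in control virus cells and 3106 in E2F1 cells. The gene was Tyms in control virus cells (-0.97 ± 0.41, adjusted p = 0.346) and Dck in E2F1 cells (-0.67 ± 0.24, adjusted p = 0.203). Rrm1 stood at -0.71 ± 0.31 in control virus cells and at 0.21 ± 0.25 in E2F1 cells. Tk1 read 0.04 ± 0.53 and -0.77 ± 0.43, and its 2 probe sets parted in control virus cells, where the second was at -1.32 ± 0.69. These comparisons share their serum arrays with those of LY294002.

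Other genes of nucleotide metabolism were taken from 6 lists of 89 symbols, older names included, of which 68 were measured. In the average over media 14 rose and 2 fell, and 52 did not pass, with a median log2 change of 0.09, where 9.23% of all probe sets were called higher and 7.25% lower. The lists' medians lay between 0.05 and 0.18, where the 5 enzymes had 1.65 and all probe sets -0.04. Rrm2b, Dtymk, Tk2 and Dctd are not analysed here.

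**Figure D4:**
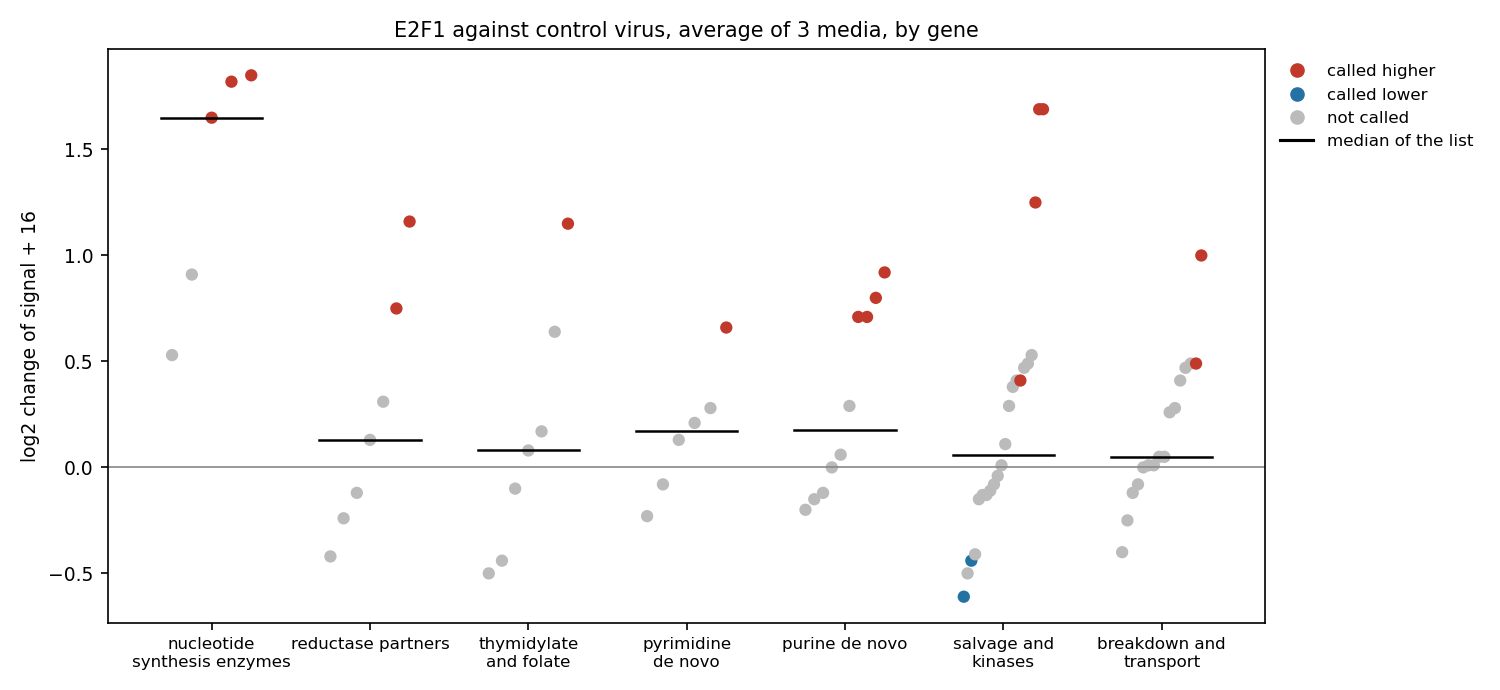
Log2 change of signal + 16 (vertical axis) for E2F1 against control virus in the average of 3 media, each point 1 gene by its brightest probe set, for the 5 nucleotide synthesis enzymes and 6 lists of related genes. Red points were called higher, blue lower and grey not; Tyms and Dut lie above all 68 related genes, and Rrm1 above all but Ak4 and Dctpp1, both at 1.69.

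Among partners that keep ribonucleotide reductase reduced, 2 of 7 rose and 0 fell, against 9.23% of all probe sets called higher. Gsr, the glutathione reductase, rose 2.24-fold (1.16 ± 0.14, limma adjusted p = 0.00251), with E2F1 signals of 297 to 790.1 against 159 to 288. Txn1, the thioredoxin that hands electrons to the reductase, rose 1.68-fold (0.75 ± 0.14, adjusted p = 0.011), and all 6 E2F1 arrays exceeded all controls.

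In the lists of this paragraph the counts stand beside 9.23% of all probe sets called higher, and 1 of 7 or 1 of 6 is near that share. In the thymidylate and folate list 1 of 7 rose, Mthfd1l, a mitochondrial folate enzyme (1.15 ± 0.18, limma adjusted p = 0.00536), with 174 to 329.7 against 70.7 to 135. In the de novo pyrimidine list 1 of 6 rose, the nucleoside monophosphate kinase Cmpk1 (0.66 ± 0.12, adjusted p = 0.00806). Its E2F1 signals of 2088 to 2493 overlapped the control virus signals of 966 to 2159. Its change was 0.11 ± 0.18 in serum, 0.94 ± 0.18 with LY294002 and 0.92 ± 0.23 in deprivation. Of 10 genes of de novo purine synthesis 4 rose and 0 fell. The first committed enzyme, Ppat, rose 1.89-fold (0.92 ± 0.16, adjusted p = 0.00727), with 299 to 543 against 140.4 to 290. The phosphoribosyl pyrophosphate synthetases Prps1 (0.80 ± 0.22, adjusted p = 0.0454) and Prps2 (0.71 ± 0.16, adjusted p = 0.0234) rose too, while other probe sets of both did not pass (0.18 for Prps1, and -0.08 and 0.28 for Prps2). The average needs the deprived control virus array, so that array could not be left out. Without any other single array the Prps1 call was lost, except for the second control virus array with LY294002 and either E2F1 array with LY294002. That of Prps2 was lost without either deprived E2F1 array, the first control virus array in serum or the first E2F1 array in serum (adjusted p up to 0.0702).

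Of the 22 genes in the list of salvage enzymes and nucleotide kinases, 4 were called higher and 2 lower. That list also holds genes outside salvage, such as Dctpp1 and Ak4. Of all probe sets 9.23% were called higher and 7.25% lower, so the count of lower genes is near the share of all. Dctpp1, a pyrophosphatase that breaks down deoxycytidine triphosphate, rose 3.23-fold (1.69 ± 0.16, limma adjusted p = 0.000978), from 243 to 463 on control virus arrays to 753 to 1283 on E2F1 arrays. Adk, adenosine kinase, rose 2.38-fold (1.25 ± 0.14, adjusted p = 0.00195), and its second probe set rose as well (1.68 ± 0.15, adjusted p = 0.000908). The mitochondrial adenylate kinase Ak4 rose (1.69 ± 0.22, adjusted p = 0.0028), though from dim signals of 45.2 to 81.5, and a second probe set did not pass and had the other sign (-0.27 ± 0.28). Dguok, the mitochondrial deoxyguanosine kinase, fell 1.53-fold (-0.61 ± 0.16, adjusted p = 0.0366), and Pnp, the purine nucleoside phosphorylase, fell 1.36-fold (-0.44 ± 0.10, adjusted p = 0.0202). The Dguok call was lost without either control virus array in serum, either one with LY294002, or the second E2F1 array of any medium (adjusted p up to 0.0896). That of Pnp was lost without the first deprived E2F1 array, the first control virus array in serum or the second E2F1 array in serum (adjusted p up to 0.0676). Cda, cytidine deaminase, did not pass (-0.13 ± 0.21, adjusted p = 0.735).

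Of 16 genes of breakdown and transport 2 rose and 0 fell, near the 9.23% of all probe sets called higher. They were the pyrimidine nucleotidase Nt5c3a (1.00 ± 0.19, limma adjusted p = 0.012) and Nudt1, which clears oxidised purine nucleotides (0.49 ± 0.12, adjusted p = 0.0284). The Nudt1 call was lost without either deprived E2F1 array, either control virus array in serum, the first E2F1 array in serum or the first control virus array with LY294002 (adjusted p up to 0.0741). Samhd1, which degrades deoxynucleotides, read 15.7 to 81.1 on control virus arrays and 16.4 to 95.9 on E2F1 arrays, with medians of 21.0 and 70.8. These signals are dim and overlap between the viruses, and Samhd1 did not pass (0.49 ± 0.31, adjusted p = 0.332).

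In single media fewer of these 68 genes passed. In serum 0 did by limma, with 18 at an unadjusted p under 0.05, where 2465 of all 15866 probe sets had one. With LY294002 6 of 68 rose and 0 fell, where 3.78% of all probe sets were called higher, among them Ak4 (1.81 ± 0.35, adjusted p = 0.0306), Dctpp1 (1.68 ± 0.25, adjusted p = 0.0163) and Gsr (1.57 ± 0.23, adjusted p = 0.0162), and without the second E2F1 array with LY294002 the count was 0. It was 2 without either deprived E2F1 array or the second control virus array with LY294002, and 3 without the first of the latter or either control virus array in serum. In deprivation Dctpp1 (2.20 ± 0.31, adjusted p = 0.0218) and Adk (1.63 ± 0.28, adjusted p = 0.0314) rose, 2 of 68, which is near the 2.19% of all probe sets called higher. Leaving out 1 E2F1 array changed that count to 0 for either deprived array, to 1 for either serum array and to 5 for either LY294002 array. In the 6 comparisons of media and of E2F1 effects 0 of the 68 passed, with 1 to 14 at an unadjusted p under 0.05. The 1 belongs to the difference of LY294002, where 998 of all 15866 probe sets had such a p. The 14 belong to deprivation in E2F1 cells, where 3106 had one, a share near that of the 68.

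The genes whose levels most resembled the group over the 11 arrays were found among 10406 other genes. The mean profile of the 5 enzymes was closest to Ccnb1, the mitotic cyclin B1 (Pearson r = 0.986), Phgdh, the first enzyme of serine synthesis (r = 0.984), and Aaas, a nuclear pore protein (r = 0.983). Rrm1 was most like Lrrc75a (r = 0.986) and Mxd3, a partner of Max (r = 0.985). Tyms was most like Ddias (r = 0.979) and the lamin Lmnb1 (r = 0.972), and Dut like the centromere gene Cenpt (r = 0.991) and the Cdk-binding subunit Cks2 (r = 0.991). Tk1 resembled the primase subunit Prim1 (r = 0.978) and Cars1, a transfer RNA synthetase (r = 0.962). Dck had the weakest match, with Sprr1a (r = 0.922) and Hirip3 (r = 0.921). The arrays fall into 2 sets by virus, and any gene that differs between them scores high, so these values describe likeness over these arrays and carry no test.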

How the data were processed

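The authors deposited linear signal intensities, with 1 value for each probe set on each Affymetrix RAE230A array. Per the submitters' processing notes, MAS5 and RMA were named, without roles or versions; the mean after trimming 2% at each end is the same on every array. Per the labels' protocols, 6 µg of total RNA was labelled. Of 15923 probe sets, 57 controls were left out of the tests. Symbols come from the platform annotation: 12783 probe sets have 1 symbol, 312 several and 2771 none, and 12748 of the 12783 were found with the same symbol in RefSeq (GRCr8). Only probe sets with 1 symbol name a gene, by the one with the highest mean.

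Signals were transformed as log2(signal + 16). All 11 arrays entered 1 linear model of 6 group means (limma 3.58.1, R 4.3.3, lmFit and eBayes), leaving 5 residual degrees of freedom; control virus cells in deprivation have 1 array, whose spread is taken from the other groups. It gave 10 comparisons, with Benjamini-Hochberg adjustment over 15866 probe sets and a threshold of 0.05. Intervals are 95%. Of the lists, up to 3 called genes in each direction, or the 1 with the smallest p where none was called, are named, and a few further genes of the lists are named whatever their values, where they were measured. The members, lists and alternatives were chosen with earlier results of these data known. Steps were tested on simulated data. The number of arrays limits the precision. Same-numbered arrays were not paired in the model. Differences of array 1 and 2 correlated between groups at -0.02 to 0.30, over 0.1 in 1 of 10 pairs of groups. That pair was control virus and E2F1 cells with LY294002, the groups compared in that medium.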

Additional observations from a re-analysis of the deposited data

How the results depend on the processing

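The alternatives were other scalings (quantile, median centring), offsets of 1 and 64, a filter on the dimmest 30% of probe sets, array weights, robust eBayes with a trend, the replicate number as a block, models of just the groups compared, the mean of a gene's probe sets, leaving out both second LY294002 arrays, and leaving out each array in turn. Without the deprived control virus array no comparison that needs it could be made. The average over media kept 3 members called or more in all of them, up to 5 when 1 array was left out (3 to 5). In serum the count of 0 became 2 with array weights (0 to 1 leaving out 1 array). With LY294002 the count of 3 became 0 with array weights, in the compared groups alone and without both second LY294002 arrays (1 to 3 leaving out 1 array). In deprivation the count of 2 became 1 with an offset of 1, 0 in the compared groups alone and 3 without the dimmest 30% of probe sets, where Dut was called (1.81, adjusted p = 0.0463) (0 to 2 leaving out 1 array). The replicate block, whose numbers went together in the LY294002 groups alone (r = 0.30), kept these counts of members. It moved all called probe sets from 56 to 3 in serum and from 456 to 131 in deprivation. It took Rrm2/Rrm2l1 in deprivation to 3.56 (limma adjusted p = 0.0867) and Prps1 to an adjusted p of 0.0576. Tk1 for deprivation in control virus cells turned to -0.09.

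Signs turned only among changes that did not pass: Tk1 in that comparison to -0.64 by the mean of its probe sets, Tyms for LY294002 in E2F1 cells to 0.03 under median centring, Tyms and Tk1 there to 0.40 and 0.03 without both second LY294002 arrays, and Cda in the average to 0.05. Leaving out 1 array, the ranges of the changes that turned were: E2F1 in serum, Tk1's second probe set -0.01 to 1.04; the difference of LY294002, Dck -0.49 to 0.02 and Tk1's second probe set -0.03 to 1.36; the difference of deprivation, Dut -0.38 to 0.90, Rrm2/Rrm2l1 -0.10 to 1.90 and Tk1's second probe set -0.44 to 0.62. For LY294002 in control virus cells Dut ran from -1.21 to 0.07, and in E2F1 cells Tyms from -0.56 to 0.40, Tk1 from -0.86 to 0.03 and Dut from -0.11 to 0.26. For deprivation in control virus cells Tk1 ran from -0.42 to 0.50 and Dut from -1.22 to 0.05, in E2F1 cells Tyms from -0.08 to 0.23, and Cda in the average from -0.29 to 0.03. Median centring moved the median of all probe sets by 0.11 for LY294002 and for deprivation in E2F1 cells and by 0.14 for the difference of deprivation, where quantile scaling moved it by 0.10. Counts of all called probe sets ranged over these settings, without those that leave out 1 array, from 0 to 522 in serum (56 as reported), 0 to 1311 with LY294002 (858) and 0 to 1223 in deprivation (456); they ranged from 0 to 189 for deprivation in control virus cells (38) and 0 to 1173 in E2F1 cells (37). With 1 array left out they ran from 0 to 71, 192 to 1190, 0 to 662, 0 to 64 and 0 to 408 in the same order. In the average they ran from 1540 to 3067 (2615 as reported). For LY294002 in E2F1 cells the count of 0 became 325 when the first E2F1 array with LY294002 was left out, which leaves the one with the high 3′ excess, and in control virus cells it became 10 when the first LY294002 array was left out; 0 of the 5 genes were called in either case.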
